A study of Apostichopus japonicus with 12 samples.

Results

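The regions described here are compact H3K9ac sites of the sea cucumber intestine that were called in control libraries and in no heat-stressed library. Peaks of 6 lists were pooled, and those sharing 1 bp or more were joined into a region. The sites were chosen by the listed peaks alone: a region was taken where it was narrower than 2500 bp, had a peak in at least 2 of the 3 control libraries and had none in the 3 heat libraries. This gave 319 regions out of 24534 in all, or 1.31% of the 24330 regions under the width limit. Since both groups' lists entered this choice, the number of sites and their absence from the heat lists are descriptions and carry no test.

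H3K9ac is acetylation of lysine 9 on histone H3. It is written by lysine acetyltransferases, removed by histone deacetylases, and known mainly from promoters of transcribed genes and from active enhancers. Apostichopus japonicus is a sea cucumber that stops feeding and enters aestivation in warm water, a state in which its intestine shrinks. A narrow H3K9ac peak in a control library is commonly read as chromatin that carried the acetyl group in enough cells of the sampled gut. What a list itself shows is that fragments there passed the caller's threshold over the local background.

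For the heat group the water rose by 2 °C per hour, starting at 18 °C and ending at 26 °C, and stayed there for 48 h. The control group was sampled at the same time without that treatment, and its temperature is not stated in the labels. Intestine was the tissue of all samples, with 3 immunoprecipitates per group and an input for each. The labels do not say whether a library came from 1 animal or from a pool, so the spread between libraries may be technical. In whole intestine, fewer cells with a mark and less of the mark per cell cannot be told apart. No gene annotation or sequence for these scaffolds was used here, so the sites are given by scaffold and position and not by gene, promoter, exon or intron.

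List length differed far more between libraries than between groups. Heat replicates 1, 2 and 3 had 1180, 929 and 17932 peaks, against 5614, 1828 and 16518 in control replicates 1, 2 and 3. The genome background recovered from the lists, in fragments per position, was 1.39, 1.203 and 1.85 in the heat libraries and 0.730, 0.758 and 1.69 in the controls. A pair of libraries, 1 in each group and both numbered 3, therefore held most of the peaks.

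The number of sites followed which lists were long. In the opposite direction, 66 compact regions (0.271% of the same regions) had a peak in at least 2 heat libraries and in no control, against the 319 seen for the controls. As a share of the compact regions with at least 2 libraries of the group, these were 5.63% of 1173 in the heat direction and 7.49% of 4259 in the control direction. The same count was then made for every one of the 20 sets of 3 libraries. Sets that held both long lists gave 5092 to 7860 regions, and sets that held neither gave 12 to 21. Among the 6 sets with control replicate 3 inside and heat replicate 3 outside, the controls had the highest count, at 319, followed by 262 and 256 when heat replicate 1 or 2 took the place of control replicate 2. Among the 6 sets with heat replicate 3 inside and control replicate 3 outside, the counts ran from 66 to 477. The highest of these, 477, came from heat replicate 3 with control replicates 1 and 2, so that exchanging the replicate 3 libraries between the groups gave more such regions than the true groups did.

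**Figure D1:**
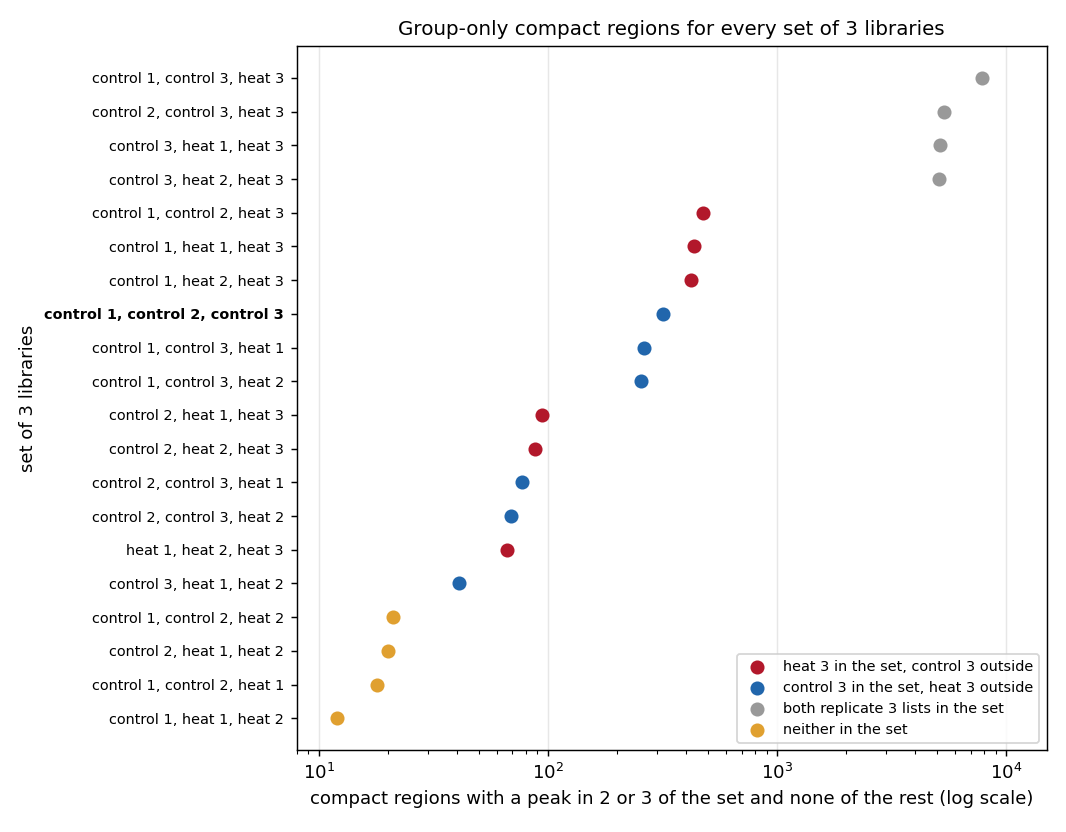
Number of compact regions (log axis) with a peak in 2 or 3 libraries of a set and in none of the others, for all 20 sets of 3 libraries; each point is a set, coloured by which of the long lists it holds. The set of the 3 controls, in bold, stands at 319, below 3 sets that hold heat replicate 3 without control replicate 3 (423 to 477).

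Heat replicate 3 alone decided nearly all of the membership. Of the 3940 compact regions with at least 2 controls and at least 1 heat library, heat replicate 3 had a peak in 3919 (99.5%), whereas heat replicate 1 had one in 565 (14.3%) and heat replicate 2 in 466 (11.8%). Among the 3114 regions with exactly 1 heat library, that library was heat replicate 3 in 3099. Without heat replicate 3 the number of sites was 3477, while leaving out heat replicate 1 or heat replicate 2 gave 324 or 329. The sites thus lacked a peak in the one long heat list, and most compact control regions lacked one in the other two. At the edge of the choice, the weakest heat peaks that kept a compact control region out had a −log10 q of 1.36, 1.302 and 1.32 in heat replicates 1, 2 and 3, and the weakest control peaks in the sites had 1.38, 1.46 and 1.36 in control replicates 1, 2 and 3.

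The lists of heat replicates 1 and 2 rejected few further regions. Their peaks also entered the choice of sites, so these shares are a description. Of the 340 compact control regions without a peak in heat replicate 3, 21 (6.18%, Wilson 95% interval 4.07–9.26%) had a peak in heat replicate 1 or 2 and were left out for it. Of the 3919 regions with a peak in heat replicate 3, 820 (20.9%, interval 19.7–22.2%) had one. For regions called in control replicates 1 and 3 only, the values were 4 of 244 (1.64%, interval 0.639–4.14%) without a peak in heat replicate 3 and 408 of 2679 (15.2%, interval 13.9–16.6%) with one. For control replicates 2 and 3 only they were 1 of 55 (1.82%, interval 0.322–9.61%) and 59 of 345 (17.1%, interval 13.5–21.4%). For the few regions called in control replicates 1 and 2 only the order was reversed. The values there were 10 of 21 (47.6%, interval 28.3–67.6%) without a peak in heat replicate 3 and 2 of 15 (13.3%, interval 3.74–37.9%) with one, and the intervals overlapped. The intervals also overlapped where all 3 controls had a peak, at 6 of 20 (30%, interval 14.5–51.9%) and 351 of 880 (39.9%, interval 36.7–43.2%). These intervals cover counting error only and treat regions as independent. Control peaks at regions with a heat peak also ranked higher, as given below, and the part of that rank in these shares was not tested.

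Most of the sites were called in the same combination of controls. Control replicates 1 and 3 shared 240 of the 319 sites (75.2%), control replicates 2 and 3 shared 54 (16.9%), and control replicates 1 and 2 shared 11 (3.45%). All 3 controls had a peak in 14 sites (4.39%). Seen from the controls, the absence of a heat peak was rarest where all 3 controls agreed, in 14 of 900 compact regions (1.56%, Wilson 95% interval 0.929–2.59%). It was seen in 240 of 2923 regions called in control replicates 1 and 3 only (8.21%, interval 7.27–9.26%), in 54 of 400 called in control replicates 2 and 3 only (13.5%, interval 10.5–17.2%) and in 11 of 36 called in control replicates 1 and 2 only (30.6%, interval 18.0–46.9%). A heat peak can join control peaks that do not overlap, and so itself raise the number of controls in a region. With a heat peak, the strongest peaks of control replicates 1 and 2 overlapped in 784 of 911 regions. Those of 1 and 3 did in 3369 of 3569, and those of 2 and 3 in 1165 of 1232. The shares are thus descriptions, and the part of this joining in them was not tested. The rule gave 24 sites without control replicate 3, of which 23 overlapped one of the 319. It gave 68 without control replicate 1 and 254 without control replicate 2, where both of the other controls had to have a peak.

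**Figure D2:**
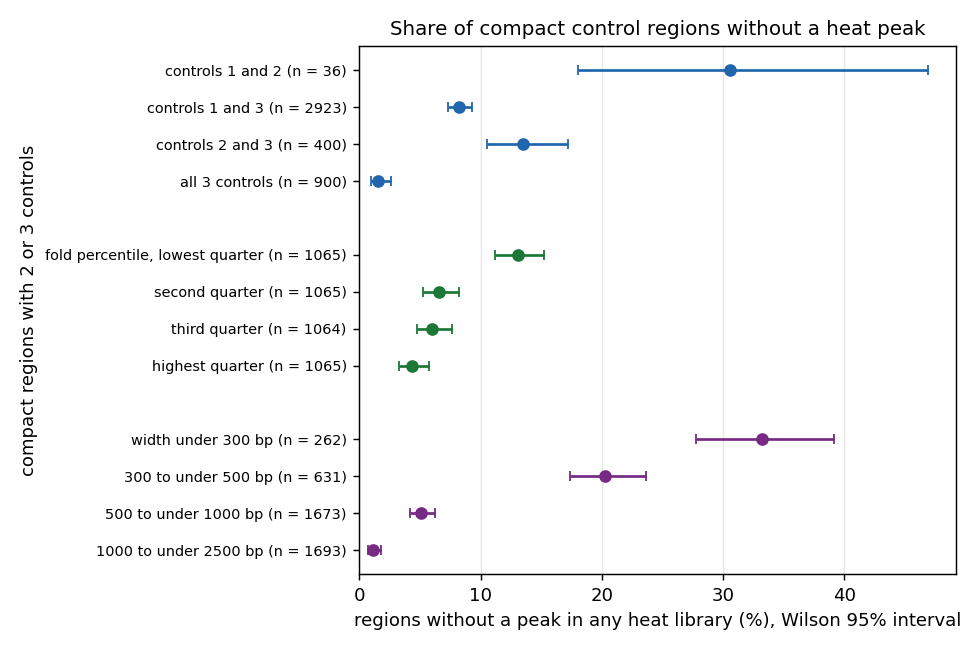
Share of compact regions with 2 or 3 controls that had no peak in any heat library (horizontal axis, percent; bars are Wilson 95% intervals), by which controls had the peak, by mean fold percentile in the controls (4 classes of like size) and by region width. The share was 1.56% where all 3 controls had a peak and 33.2% for regions under 300 bp. A heat peak widens its region and can join separate control peaks, so it enters the classes by width, by controls and by mean fold percentile itself.

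The sites held peaks of middling rank, below those of the compact regions that also had a heat peak. Fold here is the caller's ratio of fragments to local background at the summit, with 1 added to both. It is therefore below the plain ratio, most of all where the background is low. A percentile is the share of a library's own list at or below that fold. Lists of different depth are thus not put on 1 scale. In control replicate 1 the 267 peaks in the sites had a median fold of 5.03 at percentile 46.8, against 5.26 at percentile 52.8 for 4007 peaks in compact regions with a heat peak. In control replicate 2 the 81 peaks had a median fold of 4.72 at percentile 39.8, against 5.10 at percentile 53.9 for 1328 peaks. In control replicate 3 the 312 peaks had a median fold of 4.81 at percentile 58.1, against 5.47 at percentile 70.8 for 4435 peaks. The sites were lower in each of the 3 controls, by a mean of 10.9 ± 4.34 percentile points (SD, n = 3; two-sided exact sign-flip permutation test, p = 0.25, the smallest that 3 libraries allow). Without the peaks on a very high local background described below, control replicate 2 turned to 55.7 against 53.9, while control replicates 1 and 3 stayed lower, at 47.6 against 52.8 and 59.1 against 70.8, and the mean difference was −5.00 (exact sign-flip permutation p = 0.5). Without control replicate 3 the mean difference was −44.3, from 24 sites, and without control replicate 1 it was −6.99, from 68 sites, each over 2 controls. Of the 11 sites that only control replicates 1 and 2 had, 9 lay on such a high background. The part of this in the −44.3 was not tested. With all lists cut to their top 929 peaks by −log10 p it was −0.47, at a −log10 q of at least 5 it was −5.86, and with a reciprocal overlap of 50% it was −7.08.

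Ranked by −log10 p in place of fold, a choice made after the values were seen, the order held in control replicates 1 and 3 but not in control replicate 2. The medians were at percentiles 44.9, 54.4 and 54.8 for the sites in control replicates 1, 2 and 3, and at 53.2, 52.4 and 75.6 for compact regions with a heat peak. Peaks in the sites nevertheless stood above those that a control had alone, whose median fold percentile was 40.4, 34.8 and 35.0 in control replicates 1, 2 and 3; this was not tested. The rank of control peaks also climbed with the number of heat libraries in control replicate 3, with medians at percentiles 58.1, 67.3, 80.2 and 90.7 for regions with 0, 1, 2 and 3 heat libraries. In control replicate 1 these medians were 46.8, 50.7, 57.8 and 62.5, and in control replicate 2 they were 39.8, 52.1, 56.1 and 54.0. Over all compact regions with at least 2 controls, 139 of 1065 (13.1%, Wilson 95% interval 11.2–15.2%) in the lowest 25% by mean fold percentile had no heat peak, and 46 of 1065 (4.32%, interval 3.25–5.71%) in the highest 25%. Mean fold percentile takes the strongest peak of each control in a region. A heat peak that joins several peaks of a control can thus raise it, whereas only 7 sites had more than 1 peak in a control. The part of this in these shares was not tested.

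**Figure D3:**
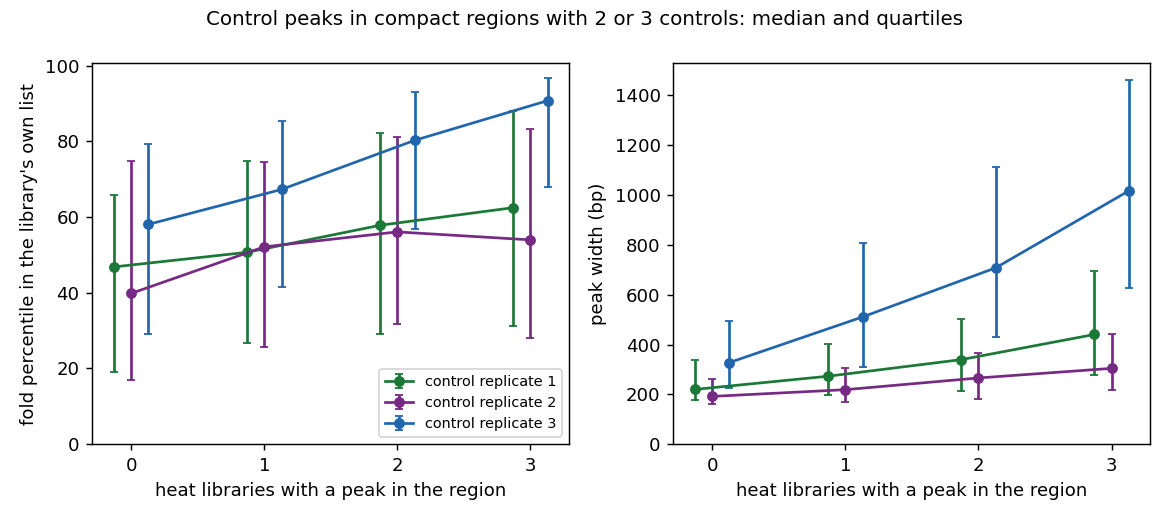
Fold percentile within the library's own list (left) and peak width in bp (right) of control peaks in compact regions with 2 or 3 controls, by the number of heat libraries with a peak in the region; points are medians, bars run from the lower to the upper quartile, and colours are the 3 control libraries. The regions with 0 heat libraries are the sites described here; their median widths of 220, 192 and 328 bp are the lowest in each control.

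Peaks of the sites were also narrower in each control. The merged regions were 170 to 1855 bp wide, with a median of 399 bp and quartiles of 292 and 579 bp, and 87 of them were under 300 bp. The compact regions with a heat peak had a median of 908 bp (quartiles 598 and 1268 bp), but merging more lists widens a region by construction. The limit of 2500 bp removed no control region without a heat peak: 0 of these reached it, whereas 195 regions with at least 2 controls and a heat peak did. The libraries' own peaks, which merging does not widen, had median widths of 220, 192 and 328 bp in the sites in control replicates 1, 2 and 3. In compact regions with a heat peak the medians were 290, 234 and 554 bp. The difference was −70, −42 and −226 bp in control replicates 1, 2 and 3, a mean of −113 ± 99.1 bp (SD, n = 3; two-sided exact sign-flip permutation test, p = 0.25). The mean was −173.5 bp without control replicate 1 and −199.8 bp with lists of equal length. A wider control peak overlaps a heat peak more readily, so the rule itself favours narrow peaks in the sites. The part of this in the difference was not tested. By region width, 87 of 262 compact control regions under 300 bp had no heat peak (33.2%), against 19 of 1693 regions of 1000 bp or more (1.12%). Region width here includes any heat peak merged into the region, so a heat peak itself moves a region towards a wider class. A wider region also offers more room for an overlap. These shares are thus descriptions, and the part of either in them was not tested.

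The strongest sites rested on many fragments in control replicate 3, the deepest control. On scaffold MRZV01000001.1 at 1879957–1880233, control replicate 3 had 51 fragments on a background of 1.69 (fold 19.3, −log10 q of 51.0), and that fold stood at percentile 99.98 of its list. Control replicate 2 had 13 fragments there (fold 7.96, percentile 95.6), control replicate 1 and all 3 heat libraries had no listed peak, and the nearest heat peak lay 13854 bp away. For scale, the smallest peak listed in heat replicate 3 on a background within 10% of its genome value rested on 8 fragments, and on 8 and 7 in heat replicates 1 and 2. This site was thus among the highest folds of one control list and unlisted in a heat list of similar length.

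The other leading sites had lower folds. MRZV01001589.1 at 129794–130084 had 41 fragments in control replicate 3 (fold 9.16) and 12 in control replicate 2 (fold 7.40), at 119737 bp from a heat peak. MRZV01001320.1 at 199169–199679 had 32 fragments in control replicate 3 (fold 10.7) and 11 in control replicate 2 (fold 6.83). MRZV01000061.1 at 562939–563363 had 28 and 12 fragments in control replicates 3 and 2 (folds 10.8 and 6.60) and lay only 402 bp from a peak of heat replicate 3. These are the sites of highest mean rank that control replicates 2 and 3 shared.

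Control replicates 1 and 3 shared the site of highest mean rank of all 319. It was MRZV01000402.1 at 139244–139464, with 17 fragments in control replicate 1 (fold 9.52) and 29 in control replicate 3 (fold 11.2), at percentiles 97.8 and 98.6, and a heat replicate 3 peak lay 250 bp away. MRZV01000070.1 at 402612–402821 had 23 and 30 fragments in these controls (folds 8.62 and 8.41) and no heat peak within 26115 bp. MRZV01000778.1 at 190505–191208 had 16 and 42 fragments (folds 7.97 and 8.92). On MRZV01000975.1 a site at 70567–71124 had 13 and 31 fragments (folds 7.40 and 11.9), and a second site at 69989–70230, outside the naming rule and chosen after its values were seen, lay 336 bp from it with 13 and 28 fragments (folds 7.40 and 10.8). Sites of this strength were few, since 13 of the 319 (4.08%) had a mean fold percentile above 90, against 234 of 3940 (5.94%) compact regions with a heat peak. The joining of control peaks by a heat peak can raise the second share, and its part was not tested.

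The 14 sites with a peak in all 3 controls were not the strongest. Their folds had medians of 5.11, 4.64 and 5.45 in control replicates 1, 2 and 3, on medians of 11, 11 and 19 fragments, and their median width was 486.5 bp. MRZV01002451.1 at 43035–43467 and MRZV01002761.1 at 7224–7664 led them, resting on 14, 11 and 20 fragments and on 13, 12 and 25 fragments in control replicates 1, 2 and 3. MRZV01002451.1 lay 97 bp from a heat peak and MRZV01002761.1 lay 1529 bp from one. MRZV01001421.1 at 135870–136254 (10, 10 and 18 fragments) lay 287 bp from a heat peak, and MRZV01000299.1 at 717049–717338 (14, 15 and 30 fragments) lay 770 bp from one.

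Further down this group the support was uneven between the controls. MRZV01001711.1 at 120003–120837 had folds at percentiles 6.70, 54.9 and 98.2 in control replicates 1, 2 and 3. MRZV01001528.1 at 102–1211, MRZV01000800.1 at 369966–370374, MRZV01000134.1 at 376804–377701 and MRZV01001619.1 at 38566–39084 had mean percentiles of 45.0, 50.6, 60.5 and 61.4. MRZV01000946.1 at 75336–75789 and MRZV01000038.1 at 527791–528820 stood at 32.9 and 32.5. The lowest with an ordinary background were MRZV01000878.1 at 252735–253359, with folds of 4.67, 3.58 and 3.94, and MRZV01001303.1 at 133795–134314, with folds of 3.59, 3.98 and 3.82. They lay 155 and 148 bp from a peak of heat replicate 3. At these weakest sites the peaks of control replicates 1 and 2 rested on 8 to 12 fragments.

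Most of the 11 sites that only control replicates 1 and 2 had differed in background from the rest of the 319. In 9 of them every control peak lay on a local background more than 10 times the genome value. The same held for 11 of all 319 sites (3.45%) and for 18 of the 3940 compact regions with a heat peak (0.457%). In these 11 the background ran from 13.1 to 79.0 fragments, the pileup from 46 to 229 fragments and the fold from 1.49 to 3.55. At MRZV01002484.1, 56269–56456, control replicate 1 had 171 fragments on a background of 55.3 (fold 3.06) and control replicate 2 had 202 on 56.2 (fold 3.55, −log10 q of 43.5). At MRZV01001342.1, 153795–153975, they had 172 on 54.4 and 198 on 58.2. These folds stood at percentiles 2.19 to 8.53 of their lists although their q values were among the smallest, and control replicate 3 and all heat libraries had no listed peak. Such backgrounds were also seen outside the sites. Of the peaks that control replicates 1, 2 and 3 had alone, 4 of 544, 19 of 158 and 11 of 5853 lay on them. Of their peaks in the sites, 10 of 267, 11 of 81 and 3 of 312 did. That is a larger share in control replicates 1 and 3 and a similar one in control replicate 2. Of their peaks in compact regions with a heat peak, 23 of 4007, 21 of 1328 and 16 of 4435 did, a smaller share than in the sites in each control.

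The narrowest sites were of the same kind. MRZV01000386.1 at 299194–299363 (170 bp), MRZV01001596.1 at 119507–119682 (176 bp) and MRZV01001342.1 at 153795–153975 (181 bp) all belonged to control replicates 1 and 2 and had backgrounds of 42.4 to 66.9 fragments. MRZV01002006.1 at 78209–78456 was the site of all 3 controls on such a background. Only 2 sites of control replicates 1 and 2 had an ordinary background, MRZV01000351.1 at 58211–58666 (13 and 9 fragments, folds 5.99 and 5.69) and MRZV01000310.1 at 320675–321248 (24 and 12 fragments, folds 6.07 and 5.30). A local background of this height means that the input DNA was itself piled up there; its part in the absence from the other lists was not tested.

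**Figure D4:**
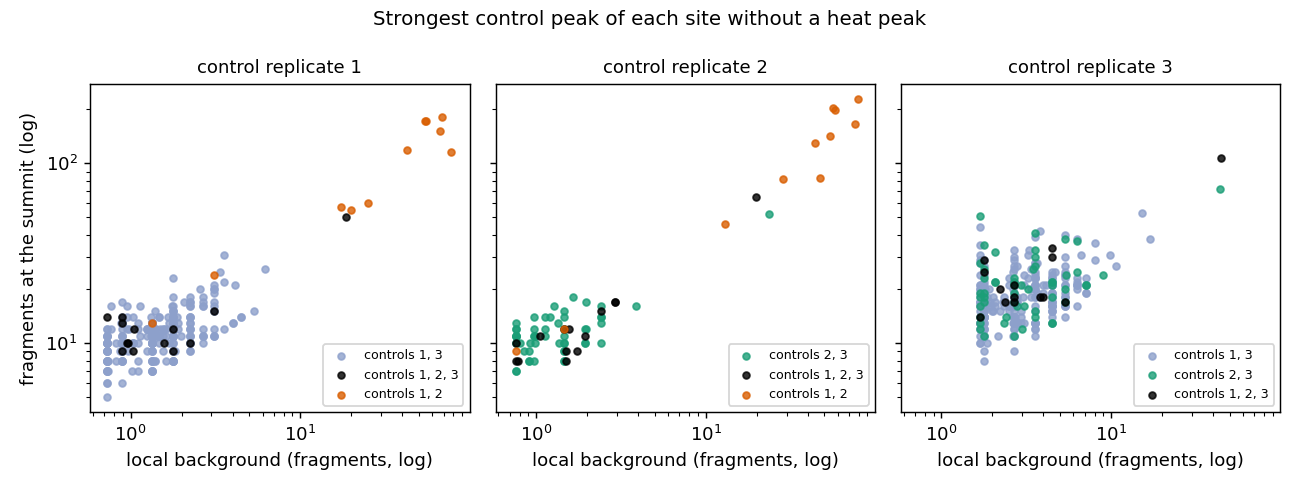
Fragments at the summit against local background (both log axes, in fragments) for the strongest peak of each site in each control library that has one, coloured by which controls share the site. Most sites of control replicates 1 and 2 only, in orange, lie apart at backgrounds of 13.1 to 79.0 fragments, and the sites of the other combinations mostly lie below.

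The widest sites were single broad peaks of control replicate 3. MRZV01000999.1 at 39200–41054 (1855 bp) had a peak of 1643 bp in control replicate 3 with 20 fragments (fold 7.22) and one of 244 bp in control replicate 1 with 8 fragments (fold 5.20). MRZV01000120.1 at 386513–388253 (1741 bp) and MRZV01000280.1 at 1074964–1076492 (1529 bp) were called across their whole length in control replicate 3, with 38 and 35 fragments. In control replicate 2 their peaks were 384 and 157 bp wide. MRZV01000280.1 also ranked high, with folds of 12.9 in control replicate 3 and 6.52 in control replicate 2, and lay 311710 bp from the nearest heat peak.

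The sites lay at all distances from heat peaks. Of the 319, 13 were on a scaffold without any heat peak, and the other 306 had a median distance of 3457.5 bp to the nearest one, with quartiles of 510.5 and 18175 bp. Within 500 bp of a heat peak there were 76 sites (23.8%), and all 76 of those heat peaks came from heat replicate 3. In 59 of the 76 the heat peak belonged to a region that a control also had, so the site flanked a region listed in both groups. At any distance, the nearest heat peak belonged to such a region for 202 of the 306 sites (66.0%). The heat peaks within 500 bp of a site had a median fold of 5.63, at percentile 62.3 of their list. A distance of at least 10000 bp was seen for 101 sites on scaffolds with heat peaks, and these had a median mean fold percentile of 49.8, against 44.4 for the sites within 500 bp. Heat replicate 3 gave the nearest heat peak for 293 of the 306 sites, heat replicate 1 for 7 and heat replicate 2 for 6.

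The extremes show the range. MRZV01000354.1 at 98836–99455, MRZV01001075.1 at 205810–206060 and MRZV01000364.1 at 222548–222916 lay 1, 10 and 17 bp from a peak of heat replicate 3. The farthest were MRZV01000726.1 at 606492–606697, 554409 bp from a heat peak, then MRZV01000280.1, and MRZV01000615.1 at 23034–23288, 309324 bp away. MRZV01000726.1 and MRZV01000615.1 had folds of 6.80 and 4.88 in control replicate 3 and of 4.89 and 4.07 in control replicate 2. Another control peak was closer than any heat peak for 190 sites, a heat peak was closer for 112, and the median distance to another control peak was 992.5 bp.

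No difference in distance beyond the spread between controls was found against peaks that a control had alone. In control replicate 1 the median distance was 3690 bp for peaks of the sites and 6380 bp for peaks of compact regions with that control alone. In control replicate 2 it was 3041 and 8036 bp, and in control replicate 3 the order turned, at 3582.5 and 2601 bp. The mean difference of −2234.5 ± 3014 bp was smaller than its spread (SD, n = 3; two-sided exact sign-flip permutation test, p = 0.5). It was −1472, −675 and −1207 bp without control replicate 1, 2 or 3, and it turned to 15660 bp without heat replicate 3 and to 7882 bp with lists of equal length. Counted as regions, 76 of 319 sites and 1467 of 6555 single-control regions lay within 500 bp of a heat peak, or 23.8% and 22.4%.

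**Figure D5:**
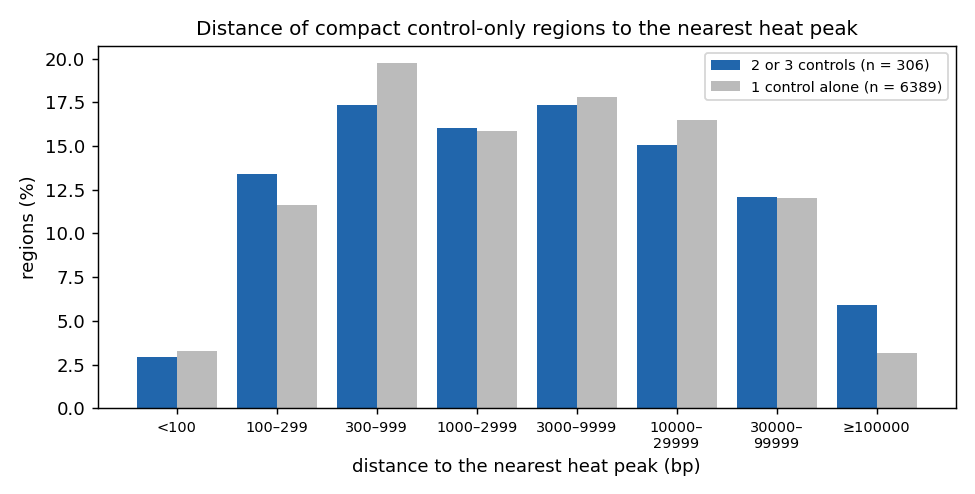
Distance from compact control regions without a heat peak to the nearest heat peak on the same scaffold (classes in bp), as percent of the 306 regions with 2 or 3 controls (blue) and of the 6389 regions with 1 control alone (grey). Both spread over all classes, with 2.94% and 3.27% under 100 bp and 5.88% and 3.16% at 100000 bp or more.

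In a site of 2 controls, with no heat peak to bridge them, the control peaks overlap by construction, whereas in regions with a heat peak they need not. The summits of control replicates 1 and 3 were a median of 63.5 bp apart in 254 sites (quartiles 23 and 154 bp), against 78 bp in 3569 compact regions with a heat peak (quartiles 26 and 250 bp). Those of control replicates 2 and 3 were 57.5 bp apart in 68 sites, against 81.5 bp in 1232 regions. For control replicates 1 and 2 the medians were 66 bp in 25 sites and 82 bp in 911 regions. Summits lay within 100 bp of each other in 61.0%, 66.2% and 76% of sites for the pairs 1 and 3, 2 and 3, and 1 and 2, and in 55.1%, 54.1% and 53.7% of the regions with a heat peak. Wider peaks leave more room between summits, and the sites' peaks were narrower, so these offsets are given without a test.

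The sites were scattered over the assembly. They lay on 272 of the 2176 scaffolds with a peak, and 232 scaffolds held 1 site each. MRZV01000068.1 held the most, with 4 sites among 58 regions, of which 2 lay 141 and 175 bp from a heat peak. Another 5 scaffolds, MRZV01000006.1, MRZV01000117.1, MRZV01000628.1, MRZV01000800.1 and MRZV01001320.1, held 3 each. Of 47 pairs of neighbouring sites on a scaffold, 16 were less than 5000 bp apart, and the median gap was 49875 bp. The tightest group was on MRZV01000800.1, where sites at 368935–369754, 369966–370374 and 371164–371766 lay 211 and 789 bp apart, between 2994 and 5006 bp from the nearest heat peak. In control replicates 1 and 3 their highest folds were 5.06 and 4.01 at the first, 4.27 and 5.96 at the second and 4.46 and 3.55 at the last. Members of this group were of middling rank, with mean fold percentiles of 43.0, 50.6 and 28.6.

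Control peaks of the sites were also set against the thresholds of the heat lists by arithmetic. The fragments and background of each control peak were scaled by the ratio of the genome backgrounds. Against heat replicate 3 no peak could fail, since its genome background is above and its lowest −log10 p (3.20) below those of every control, so that comparison tells nothing. Against heat replicates 1 and 2 all peaks of control replicates 1 and 2, whose genome backgrounds are lower, passed, and only peaks of control replicate 3 fell short. Every site has a peak of control replicate 1 or 2, so at least 1 control peak passed at all 319 sites, and this tells nothing further. For heat replicates 1 and 2, whose lowest −log10 p was 4.12 and 4.17, every control peak passed at 290 (90.9%) and 273 (85.6%) of the 319 sites. The same scaling let every control peak pass at 3770 (95.7%) and 3680 (93.4%) of the 3940 compact regions with a heat peak, although heat replicates 1 and 2 listed a peak in only 565 and 466 of them. The scaling assumes equal enrichment in the immunoprecipitates and leaves out counting error in the heat libraries; it is arithmetic on control values, not a measurement of heat signal. Absence from a list does not show that the mark was absent from the animal.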

How the data were processed

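H3K9ac ChIP-seq of intestine was deposited as 6 peak lists, 3 heat and 3 control, and the peak names pair each immunoprecipitate with an input of its own. MACS2 (2.1.1.20160309), SAMtools (1.3.1) and BWA appear in the submitters' processing notes, and no source used here gives the build. Fold, as deposited, is a ratio of fragments to local background at the summit, with the same constant added to both. The authors' lists, with −log10 p and −log10 q per peak, end near a q of 0.05. The deposited score, 10 times the −log10 q, was not used. Groups and numbers came from the sample titles.

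Peaks overlapping by 1 bp were merged with Python 3.11.15 and pandas 2.3.3. Fragments and background were solved from fold and −log10 p under the caller's Poisson model (scipy 1.17.1), within 0.002 in −log10 p for 100% of peaks. Genome background is the lowest value shared by at least 2.5% of a list's peaks. Merging and solving were tested on simulated data. Coordinates count from 1. Tests are two-sided exact sign-flip permutation tests over the 3 controls. Wilson intervals cover counting error only.

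The sites, comparison classes and lists were chosen with earlier results of these data known. Named are sites of all 3 controls, the 4 of highest mean fold percentile per pair of controls, the 3 widest, narrowest, nearest and farthest, and the scaffolds with most sites. Alternatives changed thresholds, merging, overlap, width limit, list length and libraries. Peak sequences and genes were not analysed here, because the gene table used for names belongs to another assembly.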

Additional observations from a re-analysis of the deposited data

How the results depend on the processing

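The number of sites, 319 as reported, was 152 at a −log10 q of at least 5, 153 with all lists cut to their top 929 peaks by −log10 p, 1283 when a heat peak had to overlap by 50% of both lengths, and 14 when all 3 controls were required. It ran from 24 to 3477 with 1 library left out. A limit of 1500 bp, no limit on width, joining peaks within 500 bp and a minimum fold of 3 gave 316, 319, 265 and 342. Leaving out both libraries numbered 3 (563 sites) and leaving out peaks over 10 times the genome background (312 sites) were chosen after seeing the data. The mean differences over the controls in fold percentile (−0.47 to −44.3, the latter over 24 sites) and in peak width (−92.2 to −199.8 bp) were negative under every alternative run. Their exact sign-flip permutation p-values were 0.25 or 0.5, none below the smallest their 3 or 2 controls allow. Control replicate 2 by itself was the other way in width with all 3 controls required (244.5 against 244 bp). It was also the other way in fold percentile without peaks over 10 times the genome background (55.7 against 53.9). The mean difference in distance ran from −2409 to 15660 bp over the sets that leave out 1 library. It turned positive with lists of equal length (7882 bp) and without both libraries numbered 3 (1903.5 bp); the cause was not tested. No paired analysis was possible because the count comes from no test between the groups and the other tests use control libraries only. Depth limits what a missing peak can show, since a list ends at its own threshold.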

Other observations

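The sites changed in identity, not only in number, when the lists were held to 929 peaks each. Of the 319 sites, 15 (4.70%) overlapped one of the 153 sites found with lists of equal length, of which 15 (9.80%) were overlapped. At a −log10 q of at least 5, 100 of the 319 (31.3%) overlapped one of the 152 sites found, of which 100 (65.8%) were overlapped. With a fold of at least 3 the overlap was 271, or 85.0% of the 319 and 79.2% of the 342 found. Without both libraries numbered 3 it was 23, or 7.21% of the 319 and 4.09% of the 563 found.

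Compact regions called in control replicates 1 and 2 but not in control replicate 3 numbered 36. Heat replicate 3 had a peak in 15 of them, whereas it had one in 2679 of the 2923 regions called in control replicates 1 and 3 only and in 345 of the 400 called in control replicates 2 and 3 only.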
